A study of Mus musculus with 44 samples.

Results

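S-phase cells of a mouse GTML medulloblastoma were taken from a single-cell RNA library of 4645 cells. A cell was counted as S-phase when it had 1 or more UMIs in at least 5 of 8 S-phase genes (Cdc6, Ccne2, Dtl, Exo1, Clspn, Hells, Mcm6, Ung). It also had to have a UMI in at most 4 of 8 mitotic genes (Plk1, Aurka, Cenpe, Hmmr, Cenpf, Cdc20, Ccnb1, Nusap1). The cells were thus chosen by their detected UMIs in 16 genes, where a UMI is a tag that marks 1 captured RNA molecule. The rule kept 798 of 4645 cells, or 17.2% (exact 95% binomial interval 16.1 to 18.3%, counting error only), and the remaining 3847 cells were the comparison.

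Before a cell copies its DNA, cyclin E and its kinase release E2F transcription factors from the Rb family, and E2F switches on the genes for replication. Origins are then licensed by loading the MCM helicase, which CDC6 and CDT1 place on the origin complex, and polymerases, clamp loaders, nucleotide enzymes and histone chaperones follow. Genes for mitosis come on later, through the MuvB complex with B-MYB and FOXM1, which acts at a promoter element called the CHR. In medulloblastoma, a tumor of the cerebellum, MYCN is a known driver of this proliferative programme.

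The library came from a GTML tumor and is labelled GTML_SOX9-GFP. GTML mice carry a tetracycline-controlled MYCN transgene driven from the Slc1a2 (Glt1) promoter, and in this tet-off system doxycycline turns the transgene off. Whether the cells were sorted on GFP is not given in the sources used here. The second single-cell library, labelled fGTS2, came from a GTS tumor. How the transgene is controlled in GTS tumors and in preGTS1 was not tested here. Neither library has a treatment label. Bulk RNA was measured in the tumor lines GTML3 and preGTS1, whose tissue is labelled tumor, under DOX and DMSO (3 libraries each), and in 6 GTS and 8 GTML tumors. Open chromatin was measured by ATAC-seq in the same lines, in duplicate under DOX and DMSO. How many clones each line holds is not given in the sources used here. Age, sex, strain, dose and length of treatment were not among the labels used here, and no label says that the replicates of a line were separate cultures, so the p-values given for them reflect differences among libraries that may be technical.

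S-phase cells and the rest were sequenced to similar depth. Median UMIs per cell were 19701 in S-phase cells, with a range of 4259 to 56582, and 18415 in the other cells. After each cell was thinned to 10000 UMIs, S-phase cells had a median of 3033 genes and other cells had 3018 (762 and 3387 cells, with 36 and 460 shallower cells left out). Without thinning the medians were 4371 and 4218 genes. Mitochondrial genes took a median 7.16% of UMIs in S-phase cells and 7.37% in other cells, and ribosomal protein genes took 25.4% and 25.6%. The GTML and fGTS2 libraries shared 6 cell barcodes. The doublet caller marked 1 of 4645 cells, which is too few for it to have worked, so no doublets were removed.

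Among the genes that chose the cells, the gap was widest for Cdc6, which loads the MCM helicase. Cdc6 was seen in 66.0% of S-phase cells and 14.7% of other cells, at 63.1 CPM in S-phase cells and 10.5 in other cells, a ratio of 6.0. CPM here are UMIs per 1000000 UMIs, summed over the cells of a group. Ung, which removes uracil from DNA, was seen in 92.9% of S-phase cells and 39.6% of other cells, with a ratio of 4.12. Ccne2, a cyclin E, had a ratio of 3.05, and the other 5 S-phase genes of the rule lay between 2.11 (Clspn) and 2.49 (Dtl and Hells). The 8 mitotic genes had ratios of 0.0851 (Hmmr) to 0.216 (Cenpf), and 74.2% of S-phase cells still had a Cenpf UMI. These values restate the rule and carry no evidence of their own.

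**Figure D1:**
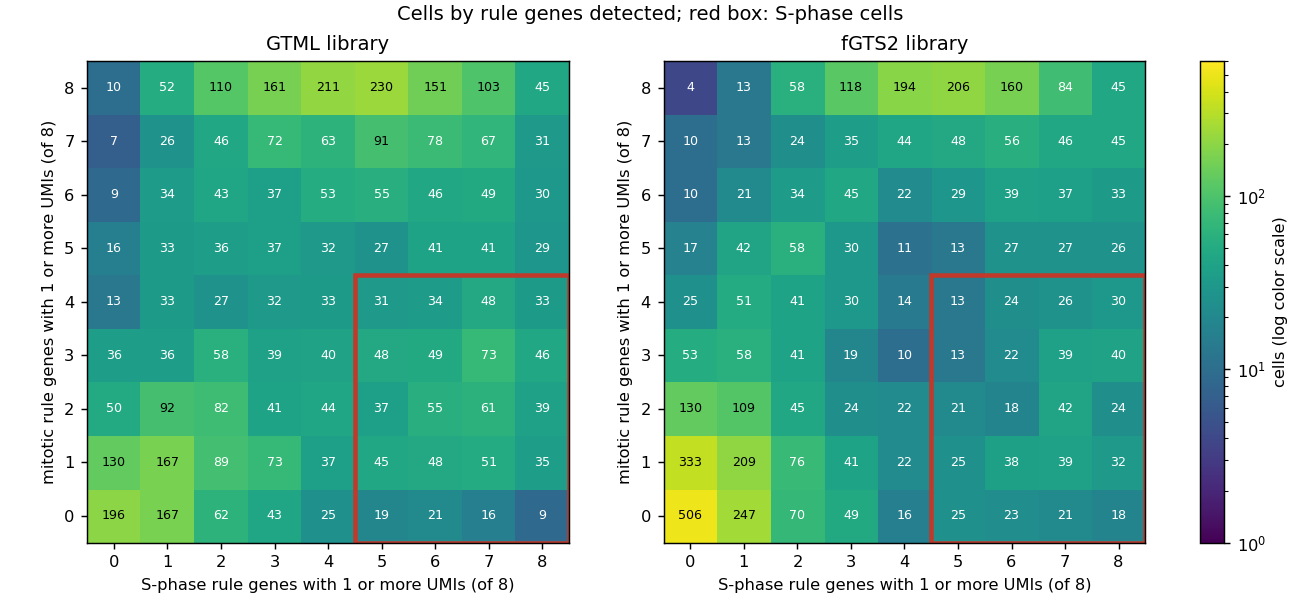
Number of cells (printed in each square and as a log color scale) at each count of detected S-phase genes of the rule (0 to 8, across) and of detected mitotic genes of the rule (0 to 8, up), in the GTML and fGTS2 libraries, with the S-phase class outlined in red. The outlined block holds 798 of 4645 GTML cells and 533 of 4498 fGTS2 cells, and cells continue across both limits without a gap.

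The limits cut through a continuum. Just inside, the 180 cells with 5 S-phase genes had 66.1 CPM of the helicase gene Mcm4, and just outside, the 179 cells with 4 S-phase genes had 43.1. On the mitotic side, the 146 member cells with 4 mitotic genes had 461 CPM of the DNA topoisomerase gene Top2a, and the 138 cells with 5 had 553. In the rest of the library, 1114 cells (24.0%) passed the S-phase limit and also had more than 4 mitotic genes, 1088 (23.4%) were mitotic only, and 1645 (35.4%) passed neither limit. Median UMIs in these 3 groups were 26479, 18790 and 14558, so the comparison cells differed among themselves in depth.

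Of 5737 genes with at least 20 CPM in either group, 59 (1.03%) had a ratio of 1.5 or more in S-phase cells over other cells, and 114 (1.99%) had a ratio of 1/1.5 or less. The median gene had a ratio of 1.01. With 1 library there is no replicate check, and the exact 95% intervals given for some ratios cover counting error only. The 30 leading genes, those with the highest ratios among genes at 20 CPM or more in S-phase cells, ran from Mcm4 at 3.13 to Fen1 at 1.79, with a median of 2.04. Of these 30, 16 belong to the 5 lists of licensing, polymerase, nucleotide, checkpoint and repair, and chromatin assembly genes described here, and 5 to the E2F, Rb, cyclin and CDK lists. All genes here were seen in the same cells that the rule chose, so these ratios describe the class and test nothing.

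The replicative helicase led the list. Mcm4 had 96.2 CPM in S-phase cells and 30.8 in other cells (95% interval of the ratio 2.94 to 3.33). Mcm3 had 194 in S-phase cells and 85.1 in other cells, and Mcm5 had 108 CPM in S-phase cells and 51.4 in other cells, ratios of 2.28 and 2.11. Mcm10, which joins the helicase when origins fire, had a ratio of 2.26, the GINS subunit Gins2 of 2.13 and the licensing factor Cdt1 of 1.99. Orc1, the origin complex subunit that recruits Cdc6, was too low for the leading list at 8.78 CPM in S-phase cells and 2.94 in other cells, a ratio of 2.99. Of 16 licensing and helicase genes with at least 20 CPM, 11 had a ratio of 1.5 or more and none of 1/1.5 or less, and the median was 1.69. Dbf4, the activator of the CDC7 kinase that fires origins, was the exception in direction, with 64.8 CPM in S-phase cells and 93.3 in other cells (0.695). Its ratio was 0.489 against the mitotic cells alone and 2.19 against cells past neither limit. Mcm8, a helicase outside the core complex, was level at 0.980.

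At the replication fork, the differences were smaller. Rpa2, a subunit of the single-strand binding complex, had 97.8 CPM in S-phase cells and 47.1 in other cells (2.08). Wdhd1, which ties the polymerase to the helicase, had a ratio of 2.0 and the flap nuclease Fen1 of 1.79. Pcna, the sliding clamp and a common S-phase marker, had 101 CPM in S-phase cells and 70.7 in other cells, a ratio of 1.42. The low polymerase epsilon subunit gene Pole2 had 10.8 CPM in S-phase cells and 5.42 in other cells (2.0), and the clamp loader subunit Rfc5 was level at 0.951. In this list 6 of 26 genes reached 1.5 and the median was 1.32.

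Nucleotide genes were split. The ribonucleotide reductase subunit Rrm2 had 132 CPM in S-phase cells and 64.3 in other cells (2.05), while its partner Rrm1, singled out after its values were seen, had 119 CPM in S-phase cells and 106 in other cells (1.13). Umps, of pyrimidine synthesis, had a ratio of 1.65. In this list 3 of 14 genes reached 1.5 and the list's median was 1.24.

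Among checkpoint and repair genes, Msh6, of mismatch repair, had 65.6 CPM in S-phase cells and 30.9 in other cells (2.12). The checkpoint kinase Chek1 had 47.8 CPM in S-phase cells and 23.5 in other cells (2.04), and the homologous repair gene Brca1 had 59.8 CPM in S-phase cells and 33.6 in other cells (1.78). In all 5 of 14 such genes reached 1.5, with a median of 1.41. The histone chaperones Chaf1b and Chaf1a, which load histones behind the fork, had ratios of 2.04 and 2.01. Chaf1b had 86.6 CPM in S-phase cells and 42.4 in other cells. Uhrf1, which reads newly copied methylated DNA, had 87.0 CPM in S-phase cells and 49.2 in other cells (1.77), whereas the methyltransferase it guides, Dnmt1, was level at 141 in S-phase cells and 140 in other cells (1.01), with a ratio of 0.739 against cells past both limits and 2.48 against cells past neither. Of the 14 chromatin assembly and methylation genes, 5 reached 1.5 and the median was 1.22.

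Among the regulators, the activating E2F genes and the cyclin E axis had ratios near 2. E2f1 had 66.1 CPM in S-phase cells and 31.6 in other cells (2.09), E2f2 had 31.5 CPM in S-phase cells and 16.8 in other cells (1.87), and E2f3 had 40.5 CPM in S-phase cells and 21.7 in other cells (1.86). Rb1, which holds E2F back, had 19.3 in S-phase cells and 23.5 in other cells. Ccne1, the other cyclin E, had 41.9 in S-phase cells and 19.6 in other cells (2.14, interval 1.96 to 2.34), and the phosphatase Cdc25a, which activates CDK2, had 72.9 CPM in S-phase cells and 35.6 in other cells (2.05). Cdk2 itself had 18.7 CPM in S-phase cells and 10.6 in other cells (1.76), and Skp2, which marks the CDK inhibitor p27 for destruction, had 36.3 CPM in S-phase cells and 21.1 in other cells (1.72). Partners of the later kinase CDK1 went the other way, with Cks2 at 115 CPM in S-phase cells and 285 in other cells (0.403) and the phosphatase Cdc25c at 3.51 in S-phase cells and 16.6 in other cells. Of 12 cyclin and CDK genes, 3 reached 1.5 and 3 were at 1/1.5 or less, with a median of 0.95. In the E2F and Rb list 4 of 11 genes reached 1.5 and none was at 1/1.5 or less.

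CDK inhibitor genes were at or below the level of the other cells, apart from Cdkn2a. Cdkn1c (p57) had 31.5 CPM in S-phase cells and 63.1 in other cells (0.50), Cdkn2d (p19INK4d) had 31.0 CPM in S-phase cells and 69.7 in other cells (0.445), and Cdkn1b (p27) had 36.2 CPM in S-phase cells and 53.4 in other cells (0.679). Cdkn1a (p21) had 59.3 CPM in S-phase cells and 67.1 in other cells (0.884), and Cdkn2a had 187 CPM in S-phase cells and 160 in other cells (1.17). Cdkn2c had 3.88 CPM in S-phase cells and 4.67 in other cells, and Cdkn2b had 0.363 CPM in S-phase cells and 0.883 in other cells. The inhibitor list also holds Cdkn3, a phosphatase gene that is among the lowest genes, with 9.20 CPM in S-phase cells and 34.8 in other cells (0.264). Of the 6 list members with at least 20 CPM, Cdkn3 among them, 3 were at 1/1.5 or less and the median was 0.589. These 3 were Cdkn3, Cdkn2d and Cdkn1c. By cell class the inhibitors had no common order. Cdkn1c had 31.5 CPM in S-phase cells, 47.4 in cells past both limits, 42.1 in mitotic cells and 102 in cells past neither. Cdkn2d had 31.0 in S-phase cells and was highest in mitotic cells, at 96.5. Single cells can weigh on these sums. Summed over the inhibitor list, the highest cell had 10.1 per 10000 UMIs among S-phase cells. It had 173 among cells past both limits and 176 among cells past neither. The per-cell medians were 3.42 in S-phase cells, 3.93 in all other cells and 3.00 in cells past neither. Which inhibitor the highest cells carried was not tested.

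**Figure D2:**
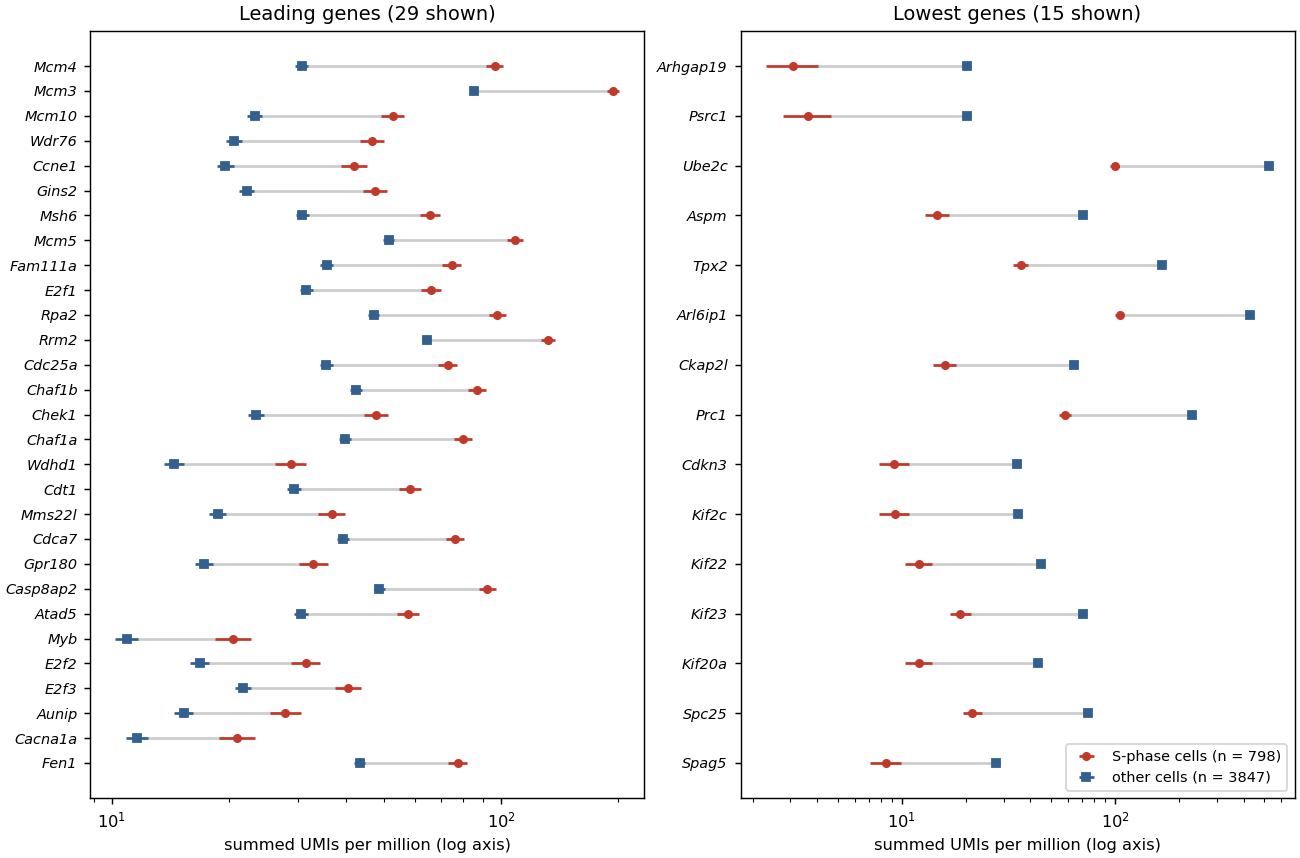
CPM of 29 of the 30 leading genes and of the 15 lowest genes in S-phase cells and in all other cells of the GTML library, on a log axis, with exact 95% intervals for counting error. Mcm4 has the widest gap of the leading genes (96.2 in S-phase cells, 30.8 in other cells) and Arhgap19 of the lowest (3.09 in S-phase cells, 20.1 in other cells).

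Other leading genes were Wdr76 (2.26), Fam111a, a PCNA partner (2.09), Mms22l, of fork repair (1.96), Cdca7 (1.94), Gpr180 (1.91), Casp8ap2, tied to histone gene expression (1.89), Atad5, which unloads the clamp (1.88), the transcription factor Myb (1.88), Aunip (1.82) and the calcium channel subunit Cacna1a (1.81). Cacna1a had 21.0 CPM in S-phase cells and 11.6 in other cells, near the floor of the list.

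Most of the lowest genes are known for work on the spindle or in cytokinesis. Arhgap19 had 3.09 CPM in S-phase cells and 20.1 in other cells (0.153), Psrc1, a spindle protein, had 3.63 CPM in S-phase cells and 20.2 in other cells (0.180), and Ube2c, which works with the anaphase-promoting complex, had 99.6 CPM in S-phase cells and 524 in other cells (0.190). The others were Aspm, Tpx2, Ckap2l, Prc1, Spc25 and Spag5, of the spindle and kinetochore, the kinesins Kif2c, Kif22, Kif23 and Kif20a, the phosphatase gene Cdkn3, and Arl6ip1, a membrane protein of the endoplasmic reticulum. The last of the 15, Spag5, had a ratio of 0.303. In the mitotic list 26 of 27 genes were at 1/1.5 or less, with a median of 0.417. Hjurp, the chaperone that deposits the centromere histone, was the exception at 44.7 in S-phase cells and 44.0 in other cells (1.02). The rule caps mitotic genes, so low values here follow from the choice of cells. Against the cells past neither limit, 11 of the 15 lowest genes had a ratio over 1, for example Prc1 at 3.59.

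Promoter words described the same genes at the level of sequence. RefSeq promoters of build GRCm38.p6, from 250 bases before to 50 after each start, were matched by symbol for 26 of the 30 leading genes and 13 of the 15 lowest. The E2F words searched were TTTCCCGC, TTTCGCGC, TTTGGCGC and TTTGCCGC on both strands. They occurred in 10 of 26 leading promoters (38.5%), in 0 of 13 of the lowest and in 704 of 27025 genes overall (2.61%). The leading genes with such a word were Atad5, Casp8ap2, Cdc25a, Cdca7, Cdt1, E2f2, E2f3, Mcm3, Mcm5 and Msh6. The CHR words TTTGAA and TTCGAA, on both strands, occurred in 4 of 26 leading promoters (15.4%), in 12 of 13 of the lowest (92.3%) and in 21.7% of all genes. CCAAT, on both strands, was in 14 of 26 leading (53.8%), 12 of 13 lowest (92.3%) and 41.1% of all promoters. E2F words can overlap each other, as they do in Mcm5. Word matches are descriptions and not evidence of binding.

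The 250 bases before the start are shown for 3 leading genes with an E2F word and 2 of the lowest genes with a CHR word, since the shares of promoters with these words differed between the leading and the lowest genes. Capitals mark the matches. The sequences are at chr8:75109259-75109508 on the plus strand for Mcm5, chr9:109875329-109875578 on the plus strand for Cdc25a, chr2:72475969-72476218 on the plus strand for Cdca7, chr2:164769679-164769928 on the plus strand for Ube2c and chr2:129297213-129297462 on the minus strand for Ckap2l, each written 5′ to 3′ along its gene.
Mcm5: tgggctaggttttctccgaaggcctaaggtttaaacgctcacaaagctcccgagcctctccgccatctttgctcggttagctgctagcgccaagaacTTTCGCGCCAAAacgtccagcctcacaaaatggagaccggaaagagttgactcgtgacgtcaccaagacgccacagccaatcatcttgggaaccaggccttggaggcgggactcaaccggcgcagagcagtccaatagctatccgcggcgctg
Cdc25a: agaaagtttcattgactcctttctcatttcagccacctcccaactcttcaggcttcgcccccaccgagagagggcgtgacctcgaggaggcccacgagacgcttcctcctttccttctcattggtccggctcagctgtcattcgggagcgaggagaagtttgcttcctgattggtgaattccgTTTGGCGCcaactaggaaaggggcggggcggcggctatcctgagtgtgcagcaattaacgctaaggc
Cdca7: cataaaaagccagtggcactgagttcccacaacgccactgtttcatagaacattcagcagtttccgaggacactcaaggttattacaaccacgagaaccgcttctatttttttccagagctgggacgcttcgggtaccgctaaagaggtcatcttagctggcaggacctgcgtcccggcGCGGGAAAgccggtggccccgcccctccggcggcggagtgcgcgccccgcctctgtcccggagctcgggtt
Ube2c: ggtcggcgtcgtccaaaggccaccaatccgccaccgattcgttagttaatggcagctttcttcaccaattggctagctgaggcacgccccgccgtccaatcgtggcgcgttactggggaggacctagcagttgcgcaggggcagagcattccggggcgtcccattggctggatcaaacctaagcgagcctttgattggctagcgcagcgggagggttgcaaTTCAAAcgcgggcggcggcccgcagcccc
Ckap2l: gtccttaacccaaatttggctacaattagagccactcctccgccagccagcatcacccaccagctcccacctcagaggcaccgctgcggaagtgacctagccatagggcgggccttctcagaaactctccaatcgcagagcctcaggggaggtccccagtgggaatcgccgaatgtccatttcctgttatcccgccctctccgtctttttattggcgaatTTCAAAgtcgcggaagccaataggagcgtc
In Mcm5 the matches start at positions -153 and -149 from the start and overlap. In Cdc25a the word lies at -67 and in Cdca7, on the other strand, at -71. The CHR words of Ube2c and Ckap2l lie close to the start, at -29 and -30, and Ckap2l has a further match at 41, past the bases shown.

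Of 12 histone genes with at least 20 CPM, 0 had a ratio of 1.5 or more in S-phase cells and 3 were at 1/1.5 or less, with a median of 0.776. H2afx had 94.0 CPM in S-phase cells and 187 in other cells (0.502), and H2afz had 2047 CPM in S-phase cells and 2187 in other cells (0.936). Against cells past neither limit the ratios were higher, at 1.78 for H2afx, 1.47 for H2afz, 3.19 for Hist1h2ae, 4.27 for Hist1h2ap and 4.39 for Hist1h1d. Against cells past both limits these genes, in the same order, had ratios of 0.404, 0.824, 0.697, 0.560 and 0.614. Against mitotic cells they had 0.346, 0.774, 0.967, 0.981 and 0.974. The histone list summed to 4427 CPM in S-phase cells, 6594 in cells past both limits, 6726 in mitotic cells and 3284 in cells past neither. The library was made with a 10x 3′ kit, per the labels' protocol, and as background, most replication-dependent histone RNAs lack a poly-A tail. How much of the histone RNA was captured was not tested.

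Outside the cell cycle the differences were small. All 19 ribosome biogenesis genes at 20 CPM or more, a group that MYC proteins are known to drive, had ratios over 1, with a median of 1.18 and a highest of 1.37 (Nolc1, 353 in S-phase cells and 257 in other cells). Srm, of polyamine synthesis, had 295 CPM in S-phase cells and 221 in other cells (1.33). Mycn itself had 72.6 CPM in S-phase cells and 63.4 in other cells (1.15). Whether transgene transcripts were counted as Mycn was not tested. Mxd3, a partner of MAX, had 16.2 CPM in S-phase cells and 28.1 in other cells (0.577). Among list members at 20 CPM or more, neuronal genes (12 of 24 listed) had a median ratio of 0.900. Quiescence and p53 target genes (8 of 16) had 0.829 and astroglial genes (3 of 18) had 0.880. None of these members was at either threshold. Sox9 had 8.66 CPM in S-phase cells and 12.9 in other cells (0.672), and Slc1a2 had 29.1 CPM in S-phase cells and 33.9 in other cells (0.859). Of further genes followed across the series, Tead2 had 22.2 CPM in S-phase cells and 18.9 in other cells, and Mapt had 18.5 in S-phase cells and 18.4 in other cells. The genes Trp53, Lmo2, Foxe1 and Twist1 were at 2.12, 4.96, 8.30 and 3.09 CPM in S-phase cells and 2.35, 5.61, 9.98 and 5.30 in other cells. Mgmt, which removes alkyl groups from DNA, had 2 UMIs in S-phase cells.

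Markers of other cell types were near 0. Summed over lists, CPM in S-phase cells and in other cells were 0.787 and 0.605 for microglia, 2.0 and 3.67 for endothelium, 2.12 and 3.65 for mural cells and fibroblasts, 0 and 0.177 for lymphoid cells and 0.242 and 0.265 for ependymal cells. Of the listed microglial markers in the table, Itgam, P2ry12 and Ptprc had no UMI in S-phase cells. Cdh5 and Flt1 of the endothelial list, Acta2 and Pdgfrb of the mural list and Cd4 and Cd79a of the lymphoid list were also at 0 there. Oligodendrocyte markers summed to 56.9 in S-phase cells and 47.0 in other cells, of which Mbp gave 40.1 in S-phase cells and 28.5 in other cells.

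**Figure D3:**
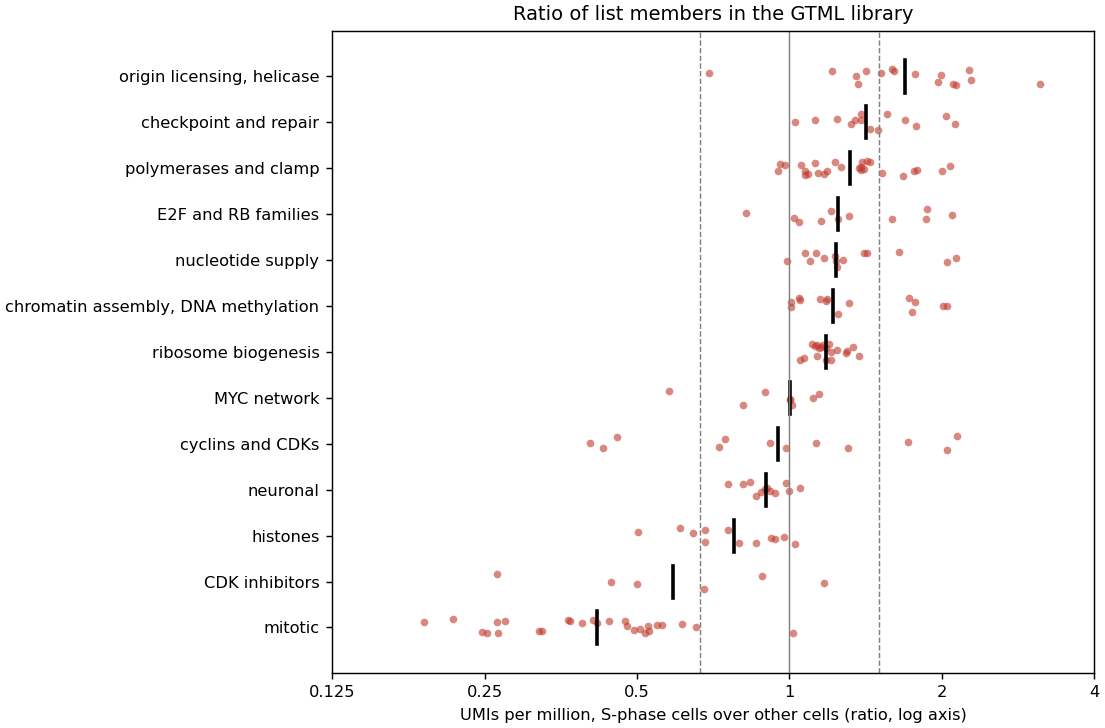
Ratio of CPM in S-phase cells over other cells for each member gene at 20 CPM or more in either group (points) of 13 gene lists, with the list medians (black bars), on a log axis; dashed lines mark 1.5 and 1/1.5. Licensing and helicase genes have the highest median (1.69) and mitotic genes the lowest (0.417), while neuronal genes sit near 1 (0.900).

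Within S-phase cells, the helicase genes Mcm4 and Mcm3 were near level while a histone gene and Mki67 varied with the number of mitotic genes seen. The genes named here by number of detected rule genes were picked with their values known. From the 65 cells with 0 mitotic genes to the 146 cells with 4, Mcm4 was 97.2, 89.6, 99.0, 99.1 and 95.5 CPM and Mcm3 was 193, 183, 203, 199 and 188. Over the same steps Hist1h1b, a linker histone, was 76.3, 117, 160, 270 and 353, and Mki67 was 29.1, 45.8, 70.3, 116 and 180. Cdc25a was 82.7 at 0 and 59.9 at 4, and Ccnd1, a G1 cyclin, was 404 at 0 and 285 at 4. Depth differed too, with median UMIs of 17612 at 0 mitotic genes and 21346 at 4, and its part in these values was not tested.

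Along the other side of the rule, from 5 to 8 detected S-phase genes (180, 207, 249 and 162 cells), Rrm2 was 72.1, 115, 150 and 174 CPM and Brca1 was 31.1, 50.3, 65.9 and 84.7. Ccne1 was 30.8, 43.4, 45.5 and 44.8, so it leveled off from 6 genes onward. Median UMIs were 16956 at 5 genes and 23069 at 8. Ccnd1 was 338 at 5 genes and 349 at 8, and Mycn was 77.6 at 5 and 62.0 at 8.

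**Figure D4:**
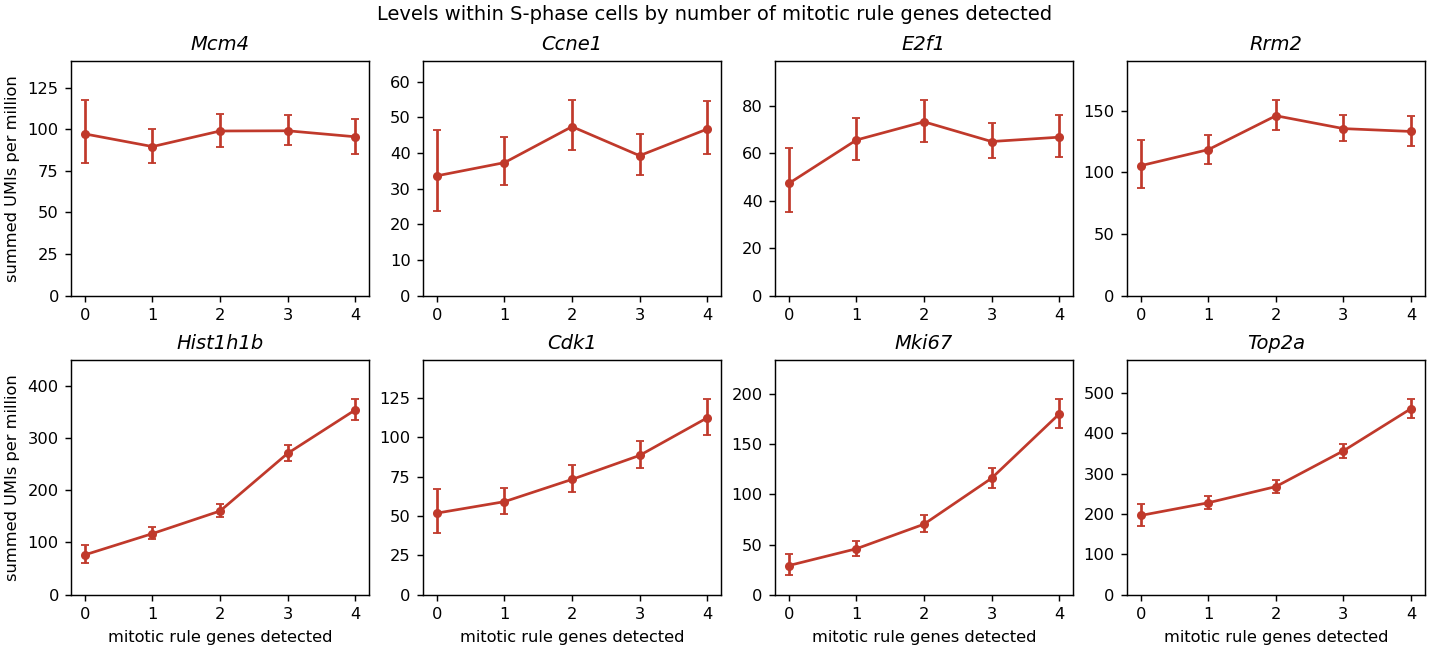
CPM of 8 genes picked with their values known, summed over S-phase cells with 0 to 4 detected mitotic genes of the rule, as points with exact Poisson 95% intervals. Mcm4 lies between 89.6 and 99.1 across the steps, and Hist1h1b is 76.3 at 0 mitotic genes and 353 at 4.

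Ratios differed in size, and for some genes in direction, with the cells the class was set against. In S-phase cells, cells past both limits, mitotic cells and cells past neither, Mcm4 was 96.2, 47.5, 22.6 and 16.1 CPM, Ccne1 was 41.9, 27.2, 12.2 and 16.1, and Pcna was 101, 102, 66.8 and 32.9. Against cells past both limits alone the median ratio of the leading genes was 1.38, with 6 of 30 at 1.5 or more and all 30 over 1. It was 2.27 against mitotic cells and 4.46 against cells past neither limit. Pcna was at about the same level in S-phase cells and in cells past both limits. Summed over lists, licensing and helicase genes had 1469 CPM in S-phase cells and 1254 in cells past both limits. In the same order, polymerase and clamp genes had 2054 and 2121, and nucleotide genes 2316 and 2361. Checkpoint and repair genes had 932 and 904, and chromatin assembly and methylation genes 2352 and 2428. These lists were thus at similar or slightly different levels in both classes.

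In the GTS tumor library the same rule kept 533 of 4498 cells, or 11.8% (10.9 to 12.8%). The leading genes of the GTML library were at 20 CPM or more for 28 of 30, and 27 of these had a ratio of 1.5 or more, with a median of 2.04, beside 2.28% of all genes tested there. The lowest genes were at 1/1.5 or less in 13 of 13, beside 1.51% of all genes. The same rule, with its cap on mitotic genes, chose the fGTS2 cells. Both counts therefore describe the class there too and test nothing. The top 30 lists of the libraries shared 16 genes (53.3% of each). The ratio's 95% interval, which covers counting error only, lay apart in 13 genes, 7 higher in GTML and 6 higher in fGTS2. Mcm4 had a ratio of 3.13 in GTML and 2.55 in fGTS2, E2f2 of 1.87 in GTML and 1.39 in fGTS2, and Ccne1 of 2.14 in GTML and 3.55 in fGTS2. Of the rule genes, Ung had 4.12 in GTML and 6.91 in fGTS2. Among the inhibitors Cdkn1c had 0.50 in GTML and 1.03 in fGTS2. With 1 library each, tumor kind and library cannot be told apart.

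The bulk libraries let the same genes be tested in samples that the rule did not use. In the tumor lines nearly all leading genes were lower under DOX. In GTML3 under DOX, 29 of 30 were lower than under DMSO, beside 31.4% of all 15926 genes tested, and 0 were higher, beside 34.5%, at a median log2 difference of -2.80 while the median of all genes was 0.05. In preGTS1, 29 of 30 were lower, beside 33.7% of all genes, and 0 were higher, beside 34.5%, at a median of -2.98. Both counts are from limma on log2 CPM with a Benjamini-Hochberg adjusted p under 0.05 over all genes. In bulk samples, fewer cells in S phase and less RNA per cell cannot be told apart.

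Mcm4 was 5.07, 5.07 and 5.22 log2 CPM in the DOX libraries of GTML3 and 7.90, 7.99 and 8.03 in the DMSO libraries, a difference of -2.86 (SE 0.11, adjusted p 3.5e-12). In preGTS1 it was 4.64, 4.95 and 5.08 under DOX and 7.42, 7.65 and 7.67 under DMSO. The groups did not overlap in either line. Ccne1 was 3.24, 3.33 and 3.45 under DOX in GTML3 and 5.89, 5.97 and 6.10 under DMSO, a difference of -2.65 (SE 0.13). In preGTS1 it was 2.26, 2.43 and 2.81 under DOX and 6.17, 6.20 and 6.31 under DMSO, a difference of -3.72. E2f1 was 4.98, 5.02 and 5.07 under DOX in GTML3 and 7.03, 7.15 and 7.15 under DMSO. Rrm2 was 4.19, 4.24 and 4.39 under DOX in preGTS1 and 7.93, 8.16 and 8.19 under DMSO, a difference of -3.82 (SE 0.13). Again no DOX library reached a DMSO library.

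Cacna1a was the leading gene that did not pass, with a difference of -0.26 in GTML3 (adjusted p 0.31) and 0.44 in preGTS1 (adjusted p 0.085). Its level was 1.51, 1.52 and 2.26 log2 CPM under DOX in GTML3 and 1.79, 2.11 and 2.19 under DMSO. The mean of the 30 genes was 3.89 to 3.98 log2 CPM under DOX and 6.47 to 6.51 under DMSO in GTML3, and in preGTS1 it was 3.80 to 3.88 under DOX and 6.53 to 6.61 under DMSO. Of the 30, 29 in GTML3 and 30 in preGTS1 had DOX libraries wholly apart from DMSO libraries, against 70.7% of all genes in GTML3 and 73.1% in preGTS1, with Cacna1a apart on the higher side in preGTS1.

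**Figure D5:**
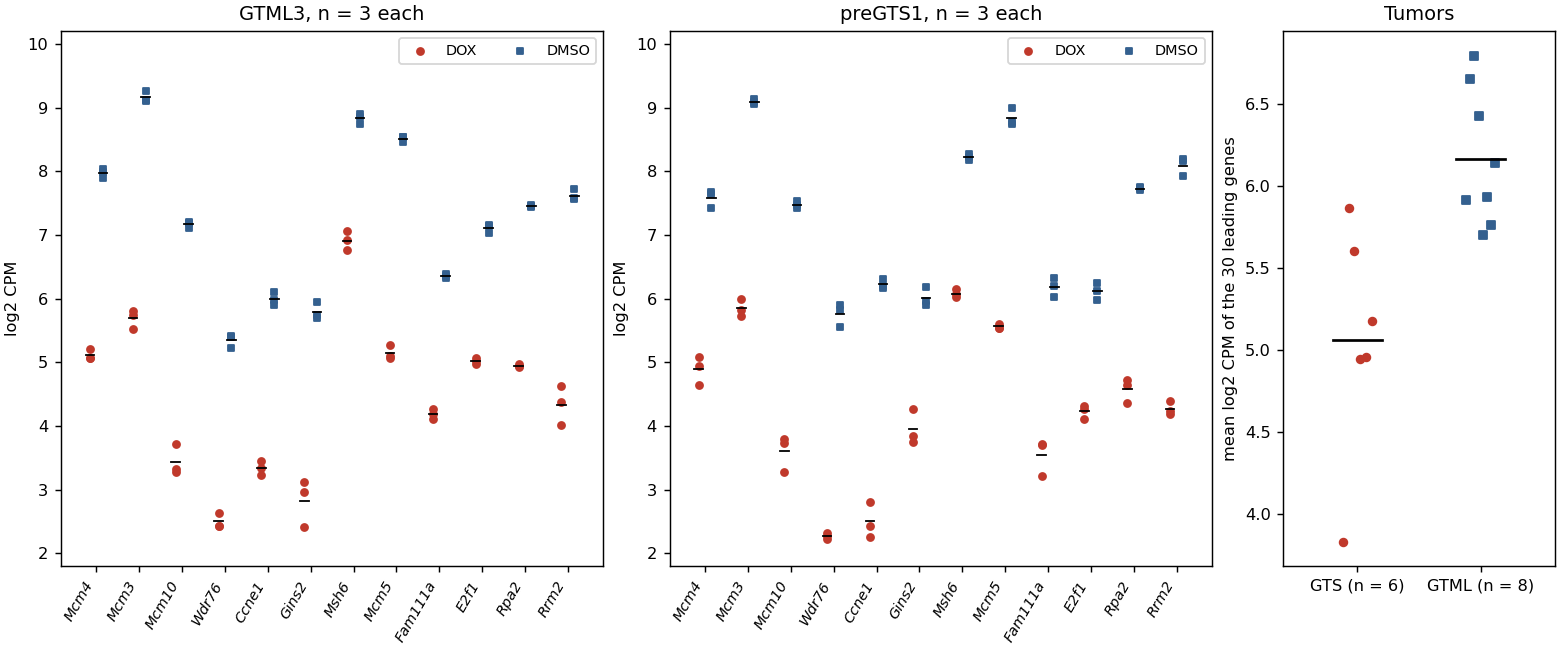
Log2 CPM of 12 of the first 13 leading genes in each DOX and DMSO library of GTML3 and preGTS1 (left and middle), and the mean log2 CPM of the 30 leading genes in each GTS and GTML tumor (right), with each library as a point and group means as black bars. No DOX library reaches a DMSO library for these 12 genes in either line, while GTS tumors (3.83 to 5.86) and GTML tumors (5.70 to 6.80) overlap.

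Other groups of cell cycle genes were lower under DOX too. Of all genes tested, 31.4% were lower in GTML3 and 33.7% in preGTS1, and 34.5% were higher in each line. All 22 licensing and helicase genes were lower under DOX in both lines, with medians of -2.66 in GTML3 and -2.71 in preGTS1, as were all 27 polymerase and clamp genes tested and all 14 nucleotide genes. Checkpoint and repair genes were lower for 23 of 24 in GTML3 and 24 of 24 in preGTS1. Mitotic genes were lower for 27 of 28 in GTML3 and 28 of 28 in preGTS1, and histone genes for 19 of 21 in each line. Of the 15 lowest genes, 13 were lower and 1 higher in GTML3 and 15 were lower in preGTS1. Arl6ip1, the higher gene, rose by 0.38 in GTML3 (adjusted p 0.0011) and fell by 0.56 in preGTS1.

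Ribosome biogenesis genes were lower for 20 of 20 in both lines, beside 31.4% of all genes in GTML3 and 33.7% in preGTS1. Mycn was 4.80, 4.93 and 5.07 under DOX in GTML3 and 8.42, 8.48 and 8.69 under DMSO, a difference of -3.59, and fell by 4.86 in preGTS1. Neuronal genes rose for 17 and fell for 3 of 24 in GTML3 and rose for 23 of 24 in preGTS1. Of all genes, 34.5% rose in each line. Cdkn1b (p27) rose by 1.08 in GTML3 and 1.68 in preGTS1, and Sox9 rose by 2.24 in GTML3 and 2.13 in preGTS1. The CDK inhibitors did not share the direction of Cdkn1b. Of 7 genes of that list tested, 4 were lower and 2 higher in GTML3, beside 31.4% and 34.5% of all genes. In preGTS1, 2 of the 7 were lower and 3 higher, beside 33.7% and 34.5%.

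The interaction of line and treatment passed for 11 of 30 leading genes, beside 42.2% of all genes, a share near the background. The fall was deeper in preGTS1 for 9 (beside 25.1% of all genes) and shallower for 2 (beside 17.1%). Ccne1 differed most, by -1.07 (SE 0.18, adjusted p 0.00025), and Gins2 went the other way at 0.91 (SE 0.24, adjusted p 0.0075), with falls of 2.06 in preGTS1 and 2.97 in GTML3. Mcm4 did not pass (0.17, adjusted p 0.38).

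Between tumors no leading gene passed. In GTS minus GTML tumors, with the number in the column names (120 or 263), read as a batch although no label says so, as a term, limma called 0 of 30 leading genes, beside 0.00637% of 15708 genes lower and 0.0509% higher. Without adjustment, 18 of 30 were lower at p under 0.05, beside 1384 of all 15708 genes, and 0 were higher. By the same count 21 of 27 mitotic genes and 15 of 20 ribosome biogenesis genes were lower. The median log2 difference of the leading genes was -1.05, against -0.07 for all genes. Leaving out GTS replicate 2 gave 9 called lower, beside 1.46% of all genes, leaving out GTS replicate 3 gave 1, beside 0.656%, and a fit with no batch term gave 5, beside 1.96%. The mean of the leading genes was 3.83 and 5.86 in the 2 GTS tumors of batch 120 and 5.70 to 6.80 in its 6 GTML tumors, which overlap. In batch 263 it was 4.95 to 5.61 in 4 GTS tumors and 5.76 to 6.14 in 2 GTML tumors, which do not. Over both batches, E2f1 was the only 1 of the 30 leading genes whose GTS and GTML tumors did not overlap, beside 1.85% of all genes. Its GTS tumors had a lowest, median and highest of 3.67, 4.90 and 6.08 log2 CPM and its GTML tumors of 6.43, 6.64 and 7.27, a difference of -1.68 (adjusted p 0.068). Mcm4 was spread over 2.32 to 5.89 in GTS tumors and 4.80 to 8.89 in GTML tumors. In a fit with tumor kind and this number as terms, the largest batch coefficient of any gene was 1.6e-14. The deposited values thus held no batch difference beyond that of tumor kind. The fit with no batch term and the overlaps of tumors rest on values of this form.

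Open chromatin at the starts of the leading genes was slightly lower under DOX than under DMSO by the median. Of these genes, 28 had a region within 1 kb of a start, and the median ratio of DOX over DMSO CPM (each plus 1) was 0.871 in GTML3 (all genes 1.0) and 0.906 in preGTS1 (all genes 1.03). In GTML3, 7 of 28 were at 1/1.5 or less, beside 12% of all genes, and 0 at 1.5 or more, beside 10.1%. In preGTS1, 6 were at 1/1.5 or less, beside 8.75%, and 0 at 1.5 or more, beside 8.13%. E2f3 had 18.6 and 14.5 CPM in the DOX duplicates of GTML3 and 37.8 and 40.7 in the DMSO duplicates, and in preGTS1 it had 5.47 and 9.06 under DOX and 19.96 and 14.3 under DMSO. Mcm4, whose RNA fell in both lines, had 141 and 152 CPM under DOX and 122 and 103 under DMSO in GTML3, and in preGTS1 it had 77.5 and 74.2 under DOX and 70.8 and 73.6 under DMSO. The duplicates of a condition were averaged and counted as 1 sample, so these ratios carry no test of condition. A comparison of the libraries, by edgeR on recovered reads with an adjusted p under 0.05, called 6 of the 28 lower in GTML3, beside 5.08% of all gene starts, and 0 higher, beside 0.811%. In preGTS1 it called 12 lower, beside 13.9%, and 1 higher, beside 14.9%. A lower median was not particular to the leading genes. The 8 mitotic genes of the rule had median ratios of 0.799 in GTML3 and 0.780 in preGTS1. The 11 of the lowest genes with a region had 0.988 in GTML3 and 1.03 in preGTS1.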

How the data were processed

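Single-cell RNA was measured in 2 libraries, bulk RNA in 26 samples and open chromatin in 16 samples, per the labels. Whole UMI counts for each gene in each cell make up the deposited single-cell tables, per the file headers and their values. The deposited bulk RNA tables give log2 CPM per gene symbol, and the deposited ATAC table gives CPM for each region relative to its library's reads in regions. Per the submitters' processing notes, the tools were Cell Ranger 3.3.0, Seurat 3.0, STAR 2.4.0, Subread 1.5.2, Bowtie2 2.2, MACS2, edgeR and limma, on mm9 and mm10, with no roles stated. In the treated-line and ATAC tables, values gave whole reads for 100% of entries within a tolerance of 0.1 read, with 10.9 to 24.7 M reads per RNA library, 0.827 to 1.75 M per GTML3 ATAC library and 5.85 to 7.77 M per preGTS1 ATAC library. The tumors' depth is unknown. Columns were matched to samples by title. The free-text description of most treated-line RNA samples names the next column instead, so the DOX and DMSO groups rest on the titles. The GFP and nonGFP regions were not analysed here.

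Cells were classed by the stated rule on raw UMIs. Summed CPM were compared as ratios with exact conditional 95% intervals, since 1 library per group allows no test. Shares have exact Clopper-Pearson intervals. Bulk genes with a CPM of at least 1 in 3 line or 6 tumor samples were tested with limma 3.58.1 (trend, robust) in R 4.3.3, adjusted by Benjamini-Hochberg at 0.05. The 12 line libraries shared 1 fit, and the tumor fit had a batch term for the number in the column names, which no label calls a batch. Single-cell tables were read with Python 3.11.15, and doublets were called with Scrublet in Scanpy 1.11.5. The plan had expected CPM in the bulk tables, and log2 CPM was used as deposited. Tests were checked on simulated data. Alternatives were other rule limits, thinning, filters, comparison cells, centring, pseudocounts, left-out libraries, a replicate block and, added after seeing the data, edgeR 4.0.16 on recovered reads and single comparison classes. Genes were named by rank: the 16 rule genes, the 30 highest and 15 lowest ratios at 20 UMI CPM or more, the ends of each gene list and a short list of MYCN, SOX9 and cell cycle genes. The members, gene lists and this rule were chosen with earlier results of these data known. Promoter sequences are from RefSeq, GRCm38.p6. One leading gene enters the counts and medians and is not reported here by name.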

Additional observations from a re-analysis of the deposited data

Results flagged for a closer look

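Among the leading genes of S-phase cells, 60 groups of 6 or 8 tumors were checked for a tumor far from the others, and 10 were flagged, where chance flags about 1 in 20. Of these, 6 were the same tumor, GTS replicate 1, each time as the lowest of the GTS tumors, in log2 CPM: Mcm4 at 2.32, Fen1 at -2.02, Chaf1b at 0.71, Chaf1a at 1.37, Wdhd1 at 3.12 and Msh6 at 3.83. The mean of the 30 leading genes was also lowest in that tumor, at 3.83, as was the mean of the mitotic list, at 4.33. The other 4 lay in GTML tumors. Cacna1a was low in replicate 1 at 5.10, Mcm3 was low in replicate 4 at 7.48, Rrm2 was low in replicate 5 at 4.34 and E2f1 was high in replicate 5 at 7.27.

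The response to DOX differed between preGTS1 and GTML3 by the interaction test for 11 of 30 leading genes, beside 42.2% of all genes, given as preGTS1 minus GTML3 in log2 units. It was lower for Ccne1 (-1.07), Atad5 (-0.84), Fen1 (-0.74), Rpa2 (-0.64), Wdr76 (-0.64), Gpr180 (-0.62), Casp8ap2 (-0.56), Rrm2 (-0.53) and Fam111a (-0.46). It was higher for Gins2 (0.91) and Cdca7 (0.52).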

How the results depend on the processing

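The share of S-phase cells moved with the rule, to 21.0% with at least 4 S-phase genes, 13.3% with at least 6, 9.39% with at most 2 mitotic genes and 41.2% with no mitotic limit. With each cell thinned to 10000 UMIs it was 16.9% of the 4149 cells deep enough, with 496 shallower cells left out. Of the 762 S-phase cells deep enough for this, 514 stayed in the class, so membership depends on depth. Genes at 1.5 or more numbered 163 with no mitotic limit, 133 after thinning, 89 with each cell weighted alike, 616 against cells with at most 1 gene of each kind, 119 with a floor of 5 CPM, 35 with 50 and 1439 with no floor. Against only cells past both limits, mitotic cells or cells past neither they numbered 19, 138 and 355, settings chosen after seeing the data. Genes at 1/1.5 or less numbered 38 with no mitotic limit, 324 against cells with at most 1 gene of each kind, 240 and 52 with floors of 5 and 50, 1490 with no floor and 232 against mitotic cells. The leading genes had ratios over 1 under each of these single-cell settings. Low mitotic genes did not. With no mitotic limit ratios were 1.06 for Arhgap19, 1.02 for Ckap2l, 1.10 for Kif20a, 1.17 for Kif23, 1.11 for Kif2c, 1.15 for Prc1, 1.11 for Spag5, 1.01 for Spc25 and 1.06 for Tpx2. Against cells with at most 1 gene of each kind they were 3.13 for Arhgap19, 4.46 for Aspm, 1.83 for Cdkn3, 9.69 for Ckap2l, 5.47 for Kif20a, 2.96 for Kif22, 5.36 for Kif23, 6.51 for Kif2c, 6.41 for Prc1, 9.61 for Spag5, 4.77 for Spc25, 4.92 for Tpx2 and 1.22 for Ube2c. Against cells past neither limit they were 1.5 for Arhgap19, 1.71 for Aspm, 2.48 for Ckap2l, 2.05 for Kif20a, 1.69 for Kif22, 2.49 for Kif23, 2.55 for Kif2c, 3.59 for Prc1, 1.74 for Spag5, 2.15 for Spc25 and 1.66 for Tpx2. Both follow from comparison cells with few mitotic genes.

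Leaving out each library gave 29 to 30 leading genes lower in GTML3 and 29 to 29 in preGTS1, and edgeR on recovered reads gave 29 in both. Same-numbered DOX and DMSO libraries did not deviate together (correlations of -0.06 to 0.01 in GTML3 and -0.15 to 0.07 in preGTS1). With 3 libraries per group, this cannot exclude that the numbers pair them. With a replicate block 29 were lower in both lines. In the tumors the count was 5 without the batch term and 0 to 9 with a tumor left out, at 9 without GTS replicate 2 and 1 without GTS replicate 3, beside 2 to 585 of all genes called in either direction with a tumor left out. ATAC medians were 0.839 to 0.911 in GTML3 and 0.861 to 0.894 in preGTS1 with a duplicate left out, and edgeR on recovered reads, which compares libraries, called 6 lower (beside 5.08% of all gene starts) and 0 higher (0.811%) in GTML3 and 12 lower (13.9%) and 1 higher (14.9%) in preGTS1. The ATAC libraries of GTML3 were shallower than those of preGTS1.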
